A study of Mus musculus with 16 samples.

Results

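The genes described here are 38 markers of the cell cycle: 22 that cells use to enter and carry out DNA synthesis (G1/S genes, from Ccnd1 and E2f1 to the Mcm helicase genes, Pcna and Rrm2) and 16 that they use to divide (G2/M genes, such as Cdk1, Ccnb1, Top2a and Mki67). They were taken by name as textbook members of the 2 phases, with earlier results of these data known. All 38 were found among the 27446 entries of the deposited table. Their levels were measured by RNA sequencing in 16 livers of wild-type C57BL/6 mice. The 8 livers of the emodin group came from mice given emodin, an anthraquinone of rhubarb, at 400 mg/kg into the stomach for 3 weeks. The emodin was suspended in 0.5% CMC-Na (sodium carboxymethyl cellulose). The 8 livers of the vehicle group came from mice given 0.5% CMC-Na alone. All mice had 7 days of acclimation, and the labels used here give neither age nor sex. Whether every library was made from a different animal is not stated in the labels, so p-values measure the spread between libraries, each of which is called a liver here.

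Before a cell copies its DNA, D- and E-type cyclins with their kinases release E2F factors from the RB protein, the MCM helicase is loaded on replication origins, and the supply of deoxynucleotides is raised. Later, cyclins A and B with the kinase CDK1, under the control of FOXM1 and B-MYB, condense the chromosomes and drive their separation. Most hepatocytes of an adult liver rest outside this cycle and can re-enter it after tissue loss or injury. RNA of whole liver was measured, so more cells in cycle and more RNA per cycling cell cannot be told apart.

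The livers held 28.3 M to 48.2 M estimated counts in the emodin group and 28.7 M to 38.6 M in the vehicle group (M, mega). Levels are given as CPM, the estimated counts of a gene scaled to the size of its library after TMM normalization. Markers of hepatocytes, the main cell of the labelled tissue, were abundant in every liver: the summed level of 6 of them lay between 57600 and 107000 CPM in emodin livers and between 99600 and 129000 CPM in vehicle livers. The division genes were scarce beside this. A tested G1/S gene had a median of 29 to 2199 estimated counts per liver, and a tested G2/M gene had a median of 12 to 84.

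Of the 38 genes, 36 had enough counts to be tested, and 1 of these passed: Gins2, a subunit of the replicative helicase, rose in emodin livers. None fell, and 35 did not pass an adjusted p of 0.05 (edgeR quasi-likelihood F test, Benjamini-Hochberg adjustment over all 14308 entries tested). That is 2.78% of the tested genes, against 13.2% of all entries (1102 called higher, or 7.7%, and 782 called lower, or 5.47%). Without emodin liver 4 there were 709 entries called higher, and without emodin liver 2 there were 521 called lower. In DESeq2, 4 of the 36 genes were called higher: Gins2, Ccne1, Mcm5 and Cdk1. The share of all entries called in DESeq2 is not given here, so these 4 cannot be set against it. Over the alternatives other than leaving out a liver, 628 to 1413 entries were called higher. The log2 fold change of emodin over vehicle was above 0 for 29 genes and below 0 for 7, with a median of 0.12, while the median over all entries was 0.01 and 51.6% of them were above 0. The filter was applied anew when a liver was left out. The median of the genes then tested was 0.01 without emodin liver 8 and 0.23 without emodin liver 5 (37 genes tested). At an unadjusted p under 0.05 there were 7 genes, all with a positive log2 fold change (19.4%, against 29.7% of all entries and 16.5% of all entries in that direction). In no gene were the emodin and vehicle livers separated without overlap, which was the case for 1.97% of all entries.

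**Figure D1:**
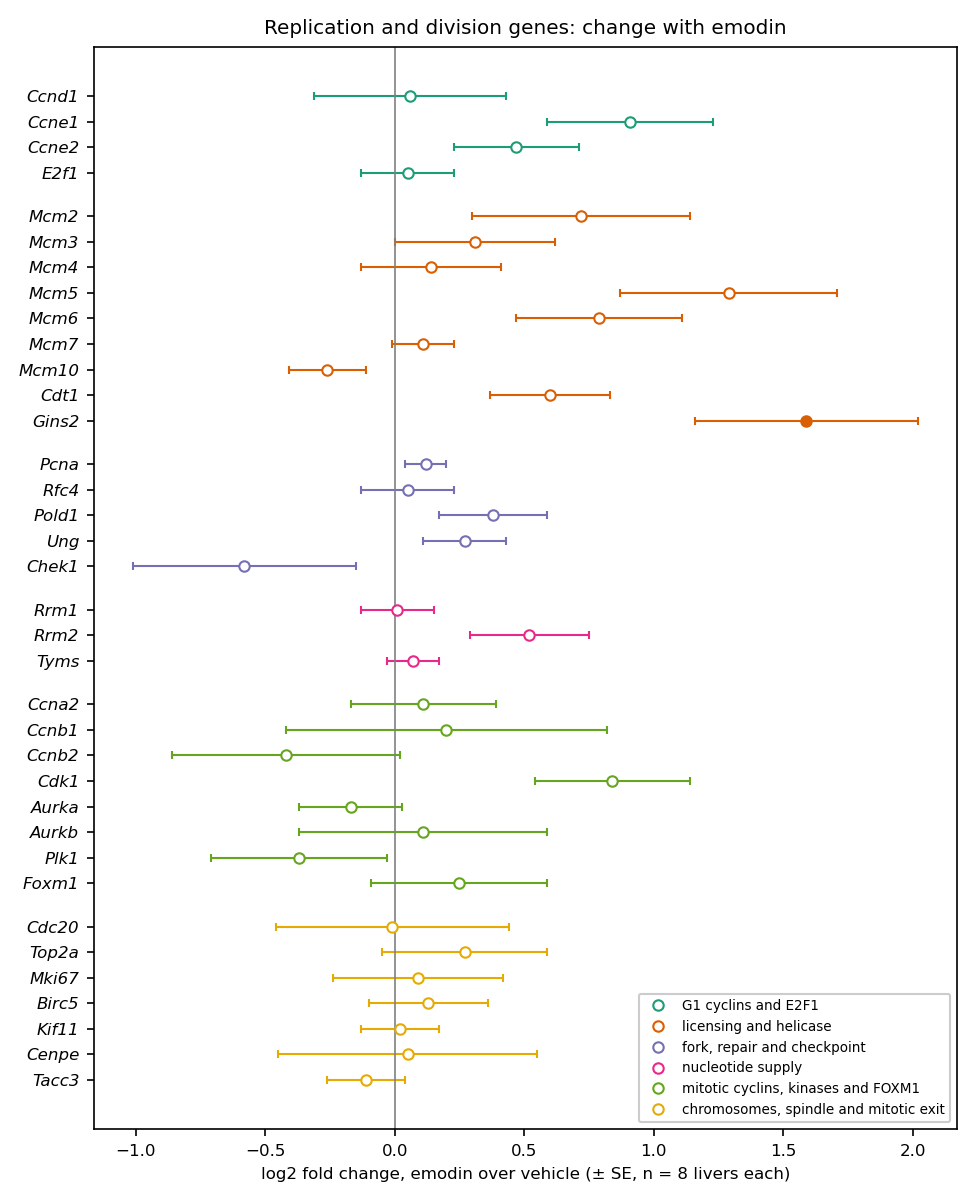
Log2 fold change of each of the 36 tested genes, emodin over vehicle, with its standard error (n = 8 livers each), grouped and coloured by role, with a filled point for an adjusted p under 0.05. Gins2 at 1.59 is the single filled point, and Chek1 at -0.58 is the lowest.

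The G1/S genes and the G2/M genes are given apart. Of 21 tested G1/S genes, 19 had a positive log2 fold change (90.5%, against 51.6% of all entries) and 2 a negative one (Mcm10 and Chek1). Their median was 0.27 (0.07 without emodin liver 8), and 1 was called higher (4.76%, against 7.7% of all entries). At an unadjusted p under 0.05 (edgeR) there were 6 G1/S genes, all positive. That is 28.6%, against 29.7% of all entries and 16.5% of all entries in that direction. Of 15 tested G2/M genes, 10 were positive (66.7%, against the same 51.6%) and 5 negative (Ccnb2, Cdc20, Aurka, Plk1 and Tacc3). Their median was 0.09 (-0.03 without emodin liver 8). None was called, against 13.2% of all entries, and 1 had an unadjusted p under 0.05 (6.67%, against 29.7%; edgeR). The difference between the 2 sets of genes was not tested. By role, the median was 0.60 for the licensing and helicase genes (9 tested), 0.26 for the G1 cyclins with E2f1 (4 tested), 0.12 for fork, repair and checkpoint genes (5 tested) and 0.07 for nucleotide supply (3 tested). It was 0.11 for mitotic cyclins and kinases with Foxm1 (8 tested) and 0.05 for chromosome and spindle genes (7 tested).

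Gins2 encodes a subunit of the GINS complex, which joins CDC45 and the MCM ring to form the active helicase. Its level in emodin livers was 0.486 CPM at the lowest, 2.46 at the median and 3.23 at the highest, against 0.245, 0.611 and 1.24 CPM in vehicle livers. In 6 of 8 emodin livers it was above every vehicle liver, while emodin livers 3 (0.486 CPM) and 5 (0.641 CPM) lay within the vehicle range. The means were 2.06 ± 1.04 CPM in emodin livers and 0.689 ± 0.422 CPM in vehicle livers (SD, n = 8 each), a log2 fold change of 1.59 ± 0.43 (SE) or 3.01-fold (adjusted p = 0.0242, edgeR). The gene was counted at low depth, with 7 to 142 estimated counts per liver. It missed the threshold in 3 of 24 alternatives, among them without emodin liver 2 (log2 fold change 1.46, adjusted p = 0.0501) and with limma's array weights (1.47, adjusted p = 0.0601). Over all alternatives the adjusted p ranged between 0.0032 and 0.0601.

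Gins2 lies on the minus strand of chromosome 8, between 120578633 and 120589304 (mm10), and 67.3% of its exonic bases (2758 bases) are also exonic in Gse1 on the plus strand in GENCODE M21. Whether the authors' counting used strand is not given in the sources used here, so reads of the 2 genes may not have been kept apart and the value of Gins2 is uncertain. Gse1 itself rose, with a lowest, median and highest level of 8.31, 14.7 and 21.6 CPM in emodin livers against 8.07, 9.56 and 13.3 CPM in vehicle livers (log2 fold change 0.55 ± 0.15, edgeR adjusted p = 0.027). The highest Gse1 level was that of emodin liver 3, where Gins2 was lowest among emodin livers. Other livers went the other way. Vehicle liver 1 was the highest vehicle liver for both Gse1 (13.3 CPM) and Gins2 (1.24 CPM). Emodin liver 2 had the highest Gins2 level, and only emodin liver 3 exceeded it for Gse1. A relation between the levels of Gse1 and Gins2 was not tested. In all, 9 of the 38 genes share exonic bases with another protein-coding gene, and for the 8 others the shared part is at most 23.4% (Ccnd1, with LTO1).

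The hexameric MCM ring unwinds DNA at the fork, and its 6 subunits, Mcm2 to Mcm7, shared a pattern by liver. In each of them emodin livers 8 and 4 were the 2 highest of the emodin group and both were above every vehicle liver, with liver 8 the highest of all 16. Mcm5 reached 0.66 CPM at the lowest, 2.16 at the median and 9.37 at the highest in emodin livers, against 0.839, 1.2 and 1.84 CPM in vehicle livers. Emodin livers 8 (9.37 CPM) and 4 (5.1 CPM) stood apart, 3 further emodin livers were also above every vehicle liver, and liver 7 was below them all. The log2 fold change of 1.29 ± 0.42 did not pass (adjusted p = 0.0525, edgeR), and it was 0.80 without emodin liver 8. It passed in DESeq2 (adjusted p = 0.0147), without emodin liver 3 (adjusted p = 0.0366, edgeR) and without emodin liver 7 (adjusted p = 0.0194, edgeR). Mcm6 was at 18.3 CPM in emodin liver 8 and 13.3 CPM in emodin liver 4, while the 6 other emodin livers (3.83 to 5.1 CPM) covered about the same span as the 8 vehicle livers (3.52 to 5.15 CPM). Its log2 fold change of 0.79 ± 0.32 (adjusted p = 0.111, edgeR) became 0.43 without emodin liver 8.

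Mcm2 showed the same arrangement, with a lowest, median and highest level of 1.05, 1.85 and 8.58 CPM in emodin livers against 0.777, 1.62 and 3.01 CPM in vehicle livers. Emodin livers 8 (8.58 CPM) and 4 (5.01 CPM) exceeded the vehicle group and the 6 others lay within it, and the log2 fold change of 0.72 ± 0.42 (adjusted p = 0.267, edgeR) was 0.25 without emodin liver 8. In Mcm4 the groups differed in both directions at once: emodin livers 8 and 4 were at 9.27 and 5.65 CPM, 5 emodin livers were below the lowest vehicle liver (2.91 CPM), and the log2 fold change was 0.14 ± 0.27 (adjusted p = 0.772, edgeR). Mcm3 reached 9.73 and 6.57 CPM in emodin livers 8 and 4, against 2.55 to 4.31 CPM in vehicle livers. Mcm7 reached 15.1 and 12.7 CPM in emodin livers 8 and 4, against 7.6 to 11.1 CPM in vehicle livers, and neither gene passed (adjusted p = 0.539 for Mcm3 and 0.563 for Mcm7, edgeR).

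**Figure D2:**
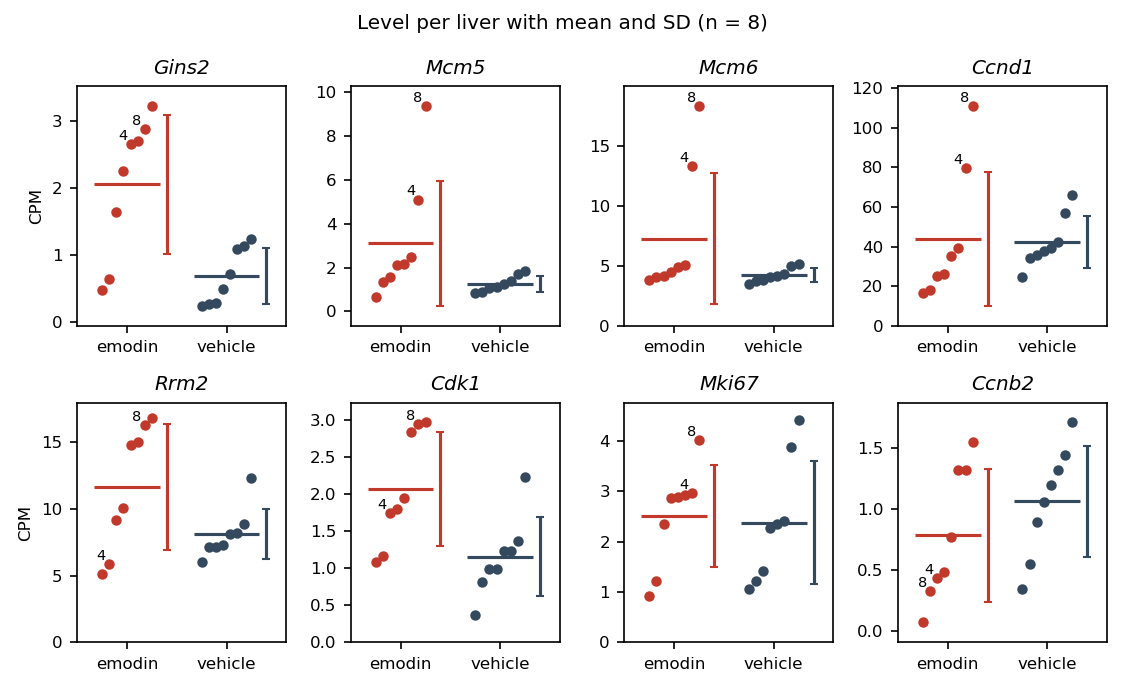
Level in CPM of 8 genes in each emodin and vehicle liver, with a horizontal line for the mean and a bar for the SD (n = 8 each), and with emodin livers 4 and 8 numbered. For Mcm6 livers 8 and 4 sit at 18.3 and 13.3 CPM above all other livers, while for Rrm2 liver 4 (5.88 CPM) is below every vehicle liver.

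The promoters of Mcm5 and Mcm6, the MCM genes with the largest fold changes, are shown for the letters that G1/S genes are known to carry. Each stretch is the 150 bases before the RefSeq start site (GRCm38.p6), read 5′ to 3′ on the strand of the gene. Capitals mark an E2F motif (TTTCCCGC, TTTCGCGC, TTTGCCGC or TTTGGCGC on either strand) or a CCAAT box (CCAAT on either strand). The Mcm5 stretch is chr8:75109359-75109508 on the plus strand and the Mcm6 stretch is chr1:128359706-128359855 on the minus strand.
Mcm5: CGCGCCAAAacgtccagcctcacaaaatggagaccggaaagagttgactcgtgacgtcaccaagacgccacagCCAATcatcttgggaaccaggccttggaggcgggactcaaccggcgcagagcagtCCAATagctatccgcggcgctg
Mcm6: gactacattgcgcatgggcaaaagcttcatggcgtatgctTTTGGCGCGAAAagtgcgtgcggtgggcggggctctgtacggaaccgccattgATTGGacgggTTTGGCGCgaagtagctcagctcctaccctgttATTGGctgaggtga
The Mcm6 stretch holds 3 E2F matches, of which 2 overlap in 1 run of capitals, and the Mcm5 stretch holds 1 whole match, whose run of capitals also holds the end of a match that begins before the stretch. In the window of 250 bases before to 50 bases after the start site, an E2F motif was present for 7 of the 18 G1/S genes with a promoter in the table (38.9%), 1 of the 13 G2/M genes (7.69%) and 2.6% of all 27025 genes. A CCAAT box was present for 9 of the 18 G1/S genes and 41.1% of all genes. These matches describe letters only and are no evidence of binding in these livers. The promoters of Ccnd1, Ccne2, Ccna2, Aurkb, Gins2, Foxm1 and Mcm4 were not matched.

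Genes that load or assist the helicase did not all follow the MCM ring. Cdt1, which loads MCM on origins, lay between 1.57 and 4.69 CPM in emodin livers (median 3.26) and between 1.58 and 2.98 CPM in vehicle livers (median 1.87). In 4 of 8 emodin livers it was above every vehicle liver, and the log2 fold change of 0.60 ± 0.23 did not pass (adjusted p = 0.0938, edgeR), but passed without emodin liver 5 (adjusted p = 0.0449). Mcm10, a helicase cofactor that is not part of the ring, was at 58.1 ± 16.4 CPM in emodin livers and 69.4 ± 9.76 CPM in vehicle livers (SD, n = 8 each; log2 fold change -0.26 ± 0.15, edgeR adjusted p = 0.26). Emodin livers 4 (39.0 CPM) and 8 (44.0 CPM), the highest for the ring genes, were the lowest of all 16 for Mcm10. Per kilobase of exon Mcm10 stood at 7.55 CPM in emodin livers and 9.02 CPM in vehicle livers, far above Mcm2 (0.419 CPM per kb in emodin livers and 0.254 in vehicle livers) and Mcm7 (2.33 and 2.15 CPM per kb in emodin and vehicle livers). Cdc6, the partner of Cdt1 in loading, had too few counts to pass the filter. It averaged 0.472 CPM in emodin livers and 0.21 CPM in vehicle livers (exact two-sided permutation p = 0.128 over 12870 assignments).

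Upstream of replication, the cyclins are given gene by gene, and the differences between them were not tested. Cyclin D1 (Ccnd1), which responds to growth signals, spread more widely in emodin livers, with 16.7 CPM at the lowest, 30.8 at the median and 111.0 at the highest, against 24.9, 38.6 and 66.1 CPM in vehicle livers. Emodin livers 8 (111.0 CPM) and 4 (79.8 CPM) were above every vehicle liver, and livers 2 (16.7 CPM) and 7 (17.9 CPM) were below every vehicle liver. The means of 43.9 ± 33.7 CPM in emodin livers and 42.2 ± 13.2 CPM in vehicle livers (SD, n = 8 each) gave a log2 fold change of 0.06 ± 0.37 (adjusted p = 0.937, edgeR), and its sign turned to -0.30 without emodin liver 8 and to -0.12 without emodin liver 4. Cyclin E1 (Ccne1), which drives the start of DNA synthesis, had a lowest, median and highest level of 0.676, 2.79 and 3.26 CPM in emodin livers against 0.466, 1.42 and 1.76 CPM in vehicle livers. Here 5 emodin livers were above every vehicle liver (1, 3, 4, 6 and 8), and the log2 fold change of 0.91 ± 0.32 did not pass (adjusted p = 0.0688, edgeR), while it passed in DESeq2 (adjusted p = 0.0339), with array weights (adjusted p = 0.0332) and without emodin liver 5 (adjusted p = 0.0257, edgeR). Cyclin E2 (Ccne2) had a log2 fold change of 0.47 ± 0.24 (adjusted p = 0.194, edgeR).

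E2f1, a transcription factor that activates many of the G1/S genes, was at 1.39, 2.27 and 3.41 CPM (lowest, median and highest) in emodin livers and 1.79, 2.31 and 2.54 CPM in vehicle livers. The vehicle livers lay inside the emodin range, with 3 emodin livers above and 2 below them all, and the log2 fold change was 0.05 ± 0.18 (adjusted p = 0.878, edgeR).

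At the fork, Pcna, the sliding clamp of DNA polymerases, was the most abundant of the 38 genes per kilobase of exon (12.4 CPM per kb in emodin livers and 11.4 in vehicle livers). It had a lowest, median and highest level of 26.3, 28.0 and 38.2 CPM in emodin livers and 25.4, 27.0 and 30.5 CPM in vehicle livers. Emodin liver 8 (38.2 CPM) was the highest, 3 emodin livers were above every vehicle liver, and the log2 fold change was 0.12 ± 0.08 (adjusted p = 0.3, edgeR). Pold1, the catalytic subunit of polymerase delta, reached 4.89 and 3.47 CPM in emodin livers 8 and 4, against 1.71 to 2.23 CPM in the 6 other emodin livers and 1.54 to 2.46 CPM in vehicle livers (log2 fold change 0.38 ± 0.21, edgeR adjusted p = 0.238). Rfc4, part of the clamp loader, and Ung, which removes uracil from DNA, had log2 fold changes of 0.05 ± 0.18 and 0.27 ± 0.16. Chek1, the kinase of the replication checkpoint, had the lowest fold change of the 36 genes (log2 fold change -0.58 ± 0.43, edgeR adjusted p = 0.388). Its level was 2.19 and 1.52 CPM in emodin livers 8 and 4, 0.228 to 0.66 CPM in the 6 other emodin livers and 0.435 to 2.37 CPM in vehicle livers, and with limma's array weights, which weighted down livers 8 and 4, it fell (log2 fold change -1.27, adjusted p = 0.0393).

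For nucleotide supply, Rrm2, the subunit of ribonucleotide reductase whose level follows the cycle, divided the emodin livers in another way than the MCM genes. It had a lowest, median and highest level of 5.09, 12.4 and 16.8 CPM in emodin livers against 6.05, 7.69 and 12.3 CPM in vehicle livers. Emodin livers 1, 3, 6 and 8 were above every vehicle liver, and livers 5 (5.09 CPM) and 4 (5.88 CPM) were below every vehicle liver. Its log2 fold change of 0.52 ± 0.23 did not pass (adjusted p = 0.149, edgeR). Rrm1, the other subunit, and Tyms, which makes thymidylate, had log2 fold changes of 0.01 ± 0.14 and 0.07 ± 0.10.

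Cdk1, the kinase that starts mitosis, had the largest fold change of the G2/M genes. Its lowest, median and highest levels were 1.09, 1.88 and 2.98 CPM in emodin livers and 0.373, 1.12 and 2.24 CPM in vehicle livers. Emodin livers 3, 6 and 8 were above every vehicle liver and 7 of 8 were above the vehicle mean, and the groups overlapped. The log2 fold change of 0.84 ± 0.30 did not pass (adjusted p = 0.0697, edgeR), and it passed in DESeq2 (adjusted p = 0.0365), with array weights (adjusted p = 0.0301) and without vehicle liver 4 (adjusted p = 0.0292). Its partner Ccnb1, the cyclin B1 gene, was at 0.107, 0.424 and 0.894 CPM in emodin livers against 0, 0.416 and 1.1 CPM in vehicle livers. All 8 emodin values of Ccnb1 lay within the vehicle range (log2 fold change 0.20 ± 0.62, edgeR adjusted p = 0.86), and the difference between Cdk1 and Ccnb1 was not tested. Ccnb2 and Ccna2 had log2 fold changes of -0.42 ± 0.44 and 0.11 ± 0.28.

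The promoters of Cdk1 and Top2a are shown for the CHR element (TTTGAA on either strand) and the CCAAT box, through which G2/M genes are known to be controlled. Each is the 150 bases before the RefSeq start site (GRCm38.p6) on the strand of the gene, with capitals for a CHR, a CCAAT box or an E2F motif. The Cdk1 stretch is chr10:69352913-69353062 on the minus strand and the Top2a stretch is chr11:99024190-99024339 on the minus strand.
Cdk1: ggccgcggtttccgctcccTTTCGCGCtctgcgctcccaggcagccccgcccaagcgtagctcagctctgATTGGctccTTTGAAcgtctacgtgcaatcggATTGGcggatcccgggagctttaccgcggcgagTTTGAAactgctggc
Top2a: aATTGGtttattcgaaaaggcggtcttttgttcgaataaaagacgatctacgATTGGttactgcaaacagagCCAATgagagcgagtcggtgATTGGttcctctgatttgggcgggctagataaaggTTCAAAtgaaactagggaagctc
Both stretches hold a CHR and more than 1 CCAAT box, and that of Cdk1 also holds an E2F motif. In the same window as above, both a CHR and a CCAAT box were present for 8 of 13 G2/M genes (61.5%), 1 of 18 G1/S genes (5.56%) and 8.97% of all genes.

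Top2a, the topoisomerase that untangles replicated chromosomes, had a lowest, median and highest level of 0.84, 1.38 and 3.95 CPM in emodin livers and 0.932, 1.39 and 2.07 CPM in vehicle livers. Emodin livers 8 (3.95 CPM) and 4 (2.48 CPM) were the highest, as in the MCM genes, and the medians of the 2 groups were nearly equal (log2 fold change 0.27 ± 0.32, edgeR adjusted p = 0.6). Mki67, which encodes the proliferation marker Ki-67, was at 0.911, 2.88 and 4.02 CPM in emodin livers and 1.05, 2.31 and 4.41 CPM in vehicle livers. The highest level of all 16 was that of vehicle liver 7, no emodin liver exceeded it, and the log2 fold change was 0.09 ± 0.33 (adjusted p = 0.887, edgeR). Emodin livers 8 and 4 were again the 2 highest of their group, at 4.02 and 2.96 CPM, with liver 6 next at 2.93 CPM.

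Of the other division genes, Aurka, Aurkb and Plk1, kinases of the spindle and of chromosome separation, had log2 fold changes of -0.17 ± 0.20, 0.11 ± 0.48 and -0.37 ± 0.34. Foxm1, the transcription factor of the G2/M genes, was at 0.25 ± 0.34, and Cdc20, which starts anaphase, at -0.01 ± 0.45. Birc5 (survivin), Kif11 (a spindle motor), Cenpe (a kinetochore motor) and Tacc3 (a spindle protein) lay between -0.11 and 0.13. None of these 9 passed. Bub1, a spindle checkpoint kinase, had too few counts to pass the filter and averaged 0.158 CPM in emodin livers and 0.224 CPM in vehicle livers (exact two-sided permutation p = 0.324 over 12870 assignments). Ccnb1, Aurkb, Bub1 and Cenpe were at 0 in some livers.

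**Figure D3:**
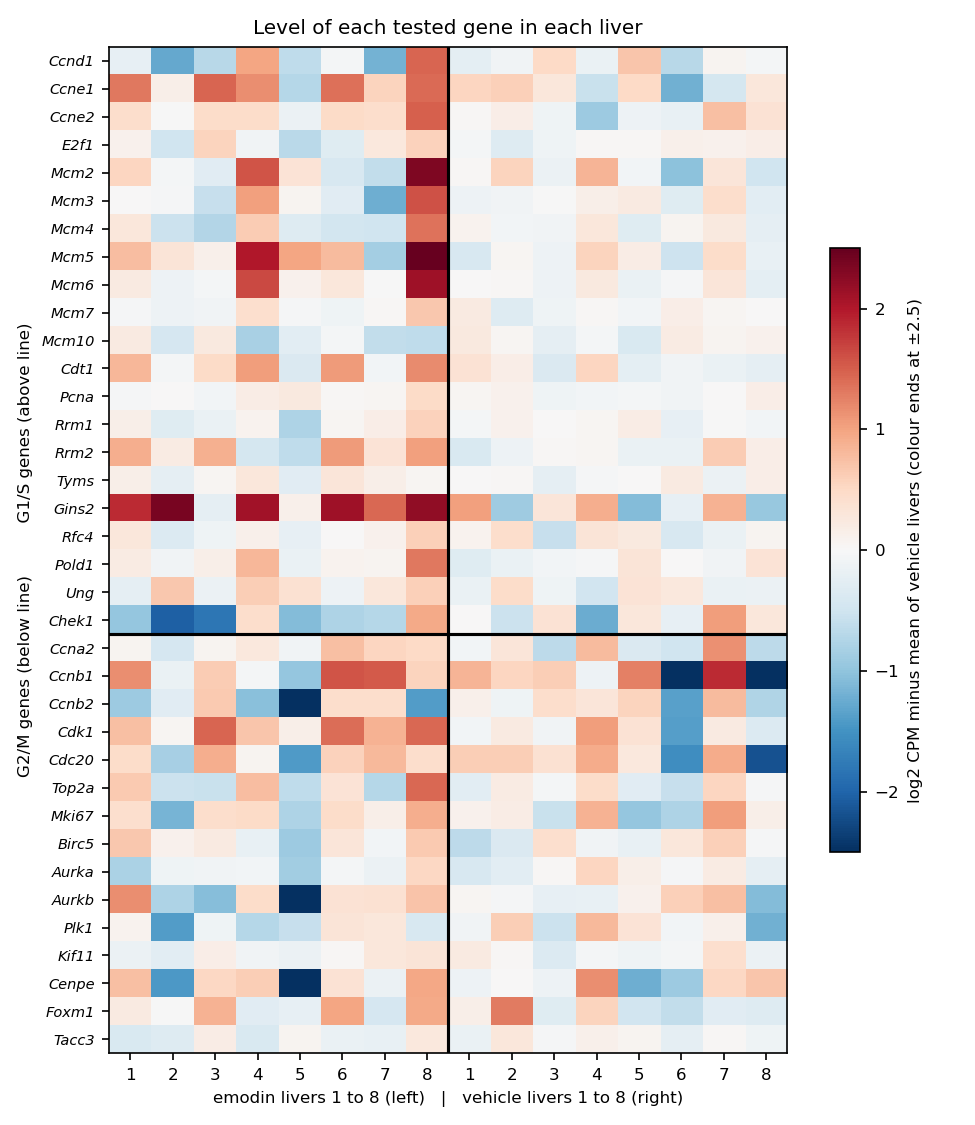
Level of each of the 36 tested genes in each liver, as log2 CPM minus the mean of the vehicle livers, with emodin livers at the left, vehicle livers at the right, and colours that end at 2.5 in either direction. The columns of emodin livers 8 and 4 are red in Mcm2 to Mcm7, while the G2/M rows change sign from liver to liver in both groups.

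Taken over the genes, the G1/S level of a liver is the mean log2 CPM of the 21 tested genes. It was 2.31 ± 0.47 in emodin livers and 2.06 ± 0.11 in vehicle livers (SD, n = 8 each). Relative to the vehicle mean, emodin liver 8 was at 1.15, liver 4 at 0.68, liver 1 at 0.33 and liver 6 at 0.24, each above the vehicle range of -0.20 to 0.20. Emodin livers 2, 3, 5 and 7 lay between -0.19 and -0.03, within that range. The G2/M level was -0.05 ± 0.54 in emodin livers and -0.09 ± 0.45 in vehicle livers. Relative to the vehicle mean it was lowest in emodin liver 5, at -1.02, below the vehicle range of -0.64 to 0.59, and the 7 other emodin livers lay within it. Liver 4, the second highest for G1/S, was at 0.04 for G2/M.

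**Figure D4:**
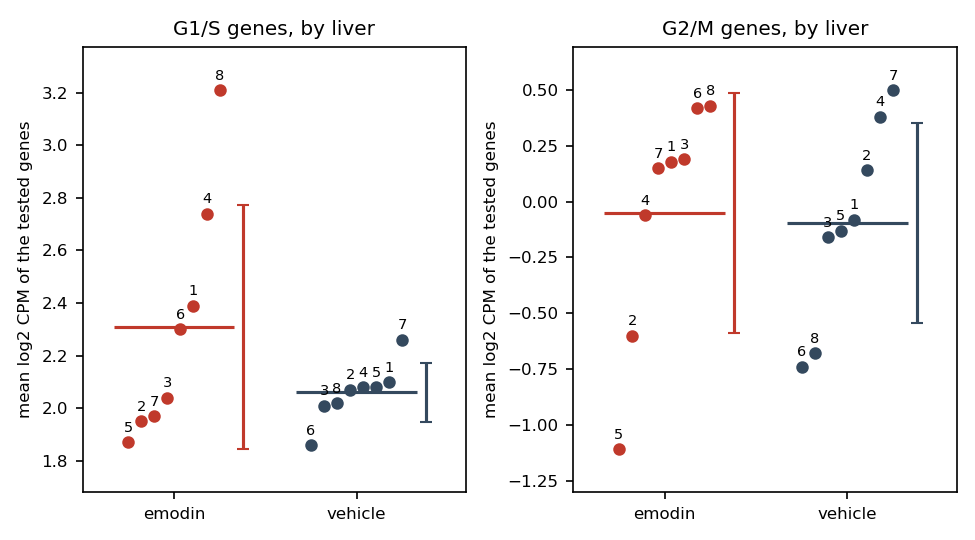
Mean log2 CPM of the tested G1/S genes (left) and G2/M genes (right) in each liver, numbered, with a line for the group mean and a bar for the SD (n = 8 each). For G1/S the emodin livers spread from 1.87 to 3.21, beyond a narrow vehicle group (1.86 to 2.26) on its upper side only. For G2/M the groups cover each other except for emodin liver 5.

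Counted by gene, emodin liver 8 was above every vehicle liver in 18 of 21 G1/S genes (85.7%) and in 3 of 15 G2/M genes, beside 26.8% of all entries. Emodin liver 4 was above every vehicle liver in 14 of 21 G1/S genes (66.7%) and in 1 of 15 G2/M genes (6.67%), beside 26.4% of all entries. The 6 other emodin livers were above in 9.52% to 28.6% of the G1/S genes, beside 13.4% to 24.5% of all entries. On the lower side, emodin livers 2, 5 and 7 were below every vehicle liver in 33.3%, 28.6% and 23.8% of the G1/S genes. The shares of all entries in these livers were 21.3%, 23.9% and 15.2%. Emodin livers 1, 3, 4, 6 and 8 were below in 0.0% to 14.3% of the G1/S genes, beside 13.4% to 26.0% of all entries. Both livers 8 and 4 were above every vehicle liver in 13 of the 21 G1/S genes (61.9%), 1 of the 15 G2/M genes (6.67%) and 17.6% of all entries. These livers were singled out from the same values, and Mcm2 to Mcm7 are among the 13 genes. Over all entries, liver 8 was the highest liver in 13.7% and the lowest in 13.8%, more than any other liver. Emodin liver 5, at the other end, was below every vehicle liver in 6 of 15 G2/M genes (40.0%), beside 23.9% of all entries.

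**Figure D5:**
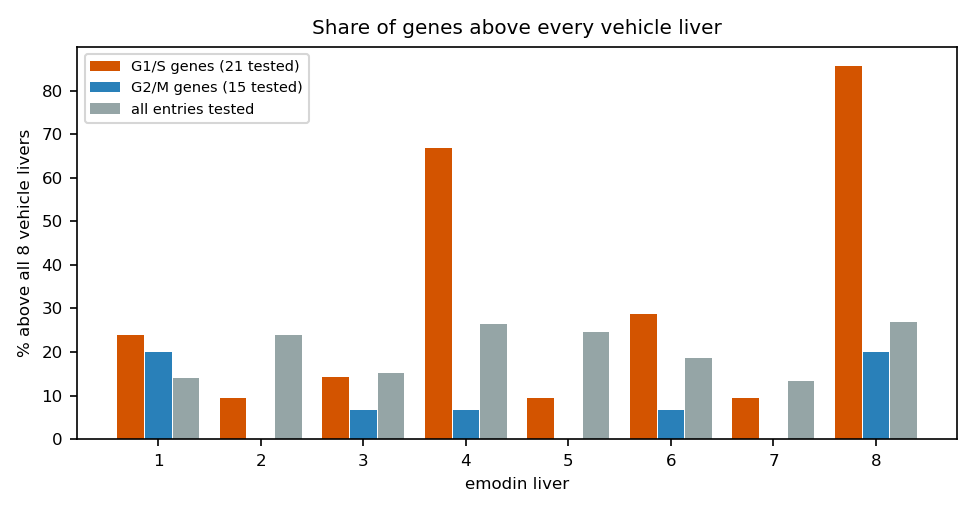
Share of the tested G1/S genes, G2/M genes and all entries that were above all 8 vehicle livers, for each emodin liver. Livers 8 (85.7%) and 4 (66.7%) stand out for G1/S genes, against 26.8% and 26.4% of all entries.

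The same 2 livers also differed in other measures. Of the 5 biliary marker genes none was called, and their summed level was 173 CPM in emodin liver 4 and 118 CPM in emodin liver 8, against 33.6 to 47.7 CPM in the 6 other emodin livers and 37.7 to 65.9 CPM in vehicle livers. Most of these 2 sums was Spp1 (154 and 95.5 CPM in emodin livers 4 and 8) and part was Sox9 (14.2 and 20.1 CPM). Krt19, the keratin of bile ducts, was at 1.01 and 0.713 CPM in emodin livers 4 and 8. These values were above the 6 other emodin livers (0.139 to 0.706 CPM) and within the vehicle range of 0.333 to 1.79 CPM. Krt7, another such keratin, was at 0.873 and 0.713 CPM in emodin livers 4 and 8, against 0.112 to 0.629 CPM in the 6 other emodin livers and 0.165 to 0.528 CPM in vehicle livers. Epcam was at 2.87 CPM in emodin liver 4 and 0.968 CPM in emodin liver 8, against 0.658 to 1.08 CPM in the 6 other emodin livers and 0.765 to 2.52 CPM in vehicle livers. The hepatocyte markers had their lowest sum, 57600 CPM, in emodin liver 4, and stood at 70800 CPM in emodin liver 8. The 6 other emodin livers lay at 74800 to 107000 CPM and the vehicle livers at 99600 to 129000 CPM. Of the 6 markers, 1 (Alb) fell. Most of these sums was Alb (38200 and 53100 CPM in emodin livers 4 and 8). Low Alb was not particular to these 2 livers, as it was below every vehicle liver in 7 of 8 emodin livers. Its level in liver 8 lay within the 48400 to 78600 CPM of the 6 other emodin livers. Ttr, Serpina1c and Cyp2e1 were also below every vehicle liver in both livers, and in 5, 3 and 2 of all 8 emodin livers. Apoa1 lay within the vehicle range in both, and Cps1 was below it in liver 4 only. The summed level of T, NK and B cell markers was 2.93 CPM in emodin liver 8, the lowest of all livers. In emodin liver 4 it was 5.63 CPM, within the 4.05 to 6.18 CPM of the 6 other emodin livers. The vehicle livers lay between 5.29 and 15.1 CPM. The emodin median of 4.89 CPM was below every vehicle liver. The highest sum, 15.1 CPM, was that of vehicle liver 7, the vehicle liver with the highest G1/S and G2/M levels.

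Markers of the remaining cell types gave no called gene, apart from 1 of 5 endothelial genes (Kdr), which fell. Their summed levels lay at 177 to 422 CPM in emodin livers and 117 to 469 CPM in vehicle livers for Kupffer cells and macrophages (6 genes), and at 2.22 to 6.82 CPM and 1.15 to 5.38 CPM in emodin and vehicle livers for neutrophils (8 genes, 3 tested). They lay at 151 to 360 CPM in emodin livers and 190 to 607 CPM in vehicle livers for erythroid cells (6 genes, 5 tested). Stellate markers (5 genes) summed to 134 to 251 CPM in emodin livers and 161 to 363 CPM in vehicle livers, and endothelial markers (5 genes) to 96.3 to 152 CPM in emodin livers and 103 to 153 CPM in vehicle livers. No marker was at 0 in every liver; Cd3e and the neutrophil genes S100a9, Ly6g, Mpo, Elane, Ngp and Camp were at 0 in some. The part of these cell types in the levels of the division genes was not tested.

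Further genes of the same pathways were counted in the same way. Of 43 other replication genes, 40 were tested, 2 rose and 1 fell (7.5%, against 13.2% of all entries), with a median log2 fold change of 0.17 (0.05 without emodin liver 8 and 0.08 with array weights). Gins1, another GINS subunit, lay between 2.34 and 4.89 CPM in emodin livers and between 1.82 and 2.58 CPM in vehicle livers (log2 fold change 0.59 ± 0.16, edgeR adjusted p = 0.0265). Emodin livers 8 (4.89 CPM) and 4 (4.57 CPM) were again the highest, and the call was lost in 3 of 24 alternatives, among them without emodin liver 4 (adjusted p = 0.0579, edgeR) and with array weights (adjusted p = 0.0811). Uhrf1, which keeps DNA methylation through replication, was at 3.67 CPM in emodin liver 8 and 1.33 CPM in liver 4, against 0.249 to 0.937 CPM in vehicle livers, and its call (log2 fold change 1.36 ± 0.42, edgeR adjusted p = 0.042) was lost in 13 of 23 alternatives. Rpa3, a subunit of the protein that coats single-stranded DNA, fell by 0.37 on the log2 scale (SE 0.11, edgeR adjusted p = 0.0368), and its call was lost in 14 of 24 alternatives.

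Of 44 other mitosis genes, 33 were tested, 1 rose and none fell (3.03%, against 13.2% of all entries), with a median log2 fold change of -0.01. The gene that rose was Ccnf, encoding cyclin F, the part of a ubiquitin ligase that has RRM2 among its known substrates. All 8 emodin livers (11.4 to 16.6 CPM) were above all 8 vehicle livers (8.15 to 10.8 CPM), with a log2 fold change of 0.54 ± 0.09 (adjusted p = 0.00116, edgeR), and the call held in all 24 alternatives. The groups were separated without overlap, in either direction, for 1.97% of all entries.

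Regulators of entry into the cycle stand upstream of the genes above. Of 24 tested G1 drivers and mitogen-signalling genes 4 rose and 1 fell (20.8%, against 13.2% of all entries), with a median of 0.19. Of 18 tested CDK inhibitors and RB family genes 2 rose (11.1%, against 7.7% of all entries called higher), with a median of 0.08. E2f3, an activating E2F factor, rose with a log2 fold change of 0.49 ± 0.11 (adjusted p = 0.00886, edgeR), between 6.23 and 10.5 CPM in emodin livers against 5.25 to 7.16 CPM in vehicle livers. Cdk6, a partner of D-type cyclins named here after its value was seen, fell by 0.42 on the log2 scale (SE 0.13, edgeR adjusted p = 0.0412). No G1 driver was called lower in 9 of 24 alternatives: total counts scaling, no filter, and without emodin liver 2, 4 or 5 or vehicle liver 1, 3, 5 or 7. Myc, a growth factor-responsive transcription factor, was at 31.3, 52.7, 79.6 and 68.9 CPM in emodin livers 2, 4, 5 and 8, at 4.11 to 7.57 CPM in the other 4 emodin livers and at 2.1 to 5.99 CPM in vehicle livers (log2 fold change 3.21 ± 0.66, edgeR adjusted p = 0.00747). The early response genes Jun (3.33 ± 0.87, adjusted p = 0.0234) and Fos (2.79 ± 0.80, adjusted p = 0.0319) rose too, with by far the highest levels in emodin liver 5 (657 CPM for Jun and 42.8 CPM for Fos). Without that liver the log2 fold change was 1.84 for Jun and 1.72 for Fos, and the call of Fos was lost in 12 of 24 alternatives.

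Cdkn1a, which encodes the CDK inhibitor p21, was high in the same 4 livers as Myc, at 27.4, 37.6, 33.5 and 49.5 CPM in emodin livers 2, 4, 5 and 8, against 3.61 to 6.09 CPM in the other 4 emodin livers and 1.09 to 8.2 CPM in vehicle livers (log2 fold change 2.16 ± 0.58, edgeR adjusted p = 0.026). Btg2, an anti-proliferative gene, rose as well (2.70 ± 0.67, edgeR adjusted p = 0.0178), and its log2 fold change was 1.41 without emodin liver 5, where it was at 324 CPM. Cdkn1a was not called without emodin liver 4 (adjusted p = 0.0533, edgeR). With array weights neither Myc (log2 fold change 1.63, adjusted p = 0.101), Cdkn1a (0.93, adjusted p = 0.287), Btg2 (1.29, adjusted p = 0.0633), Jun (0.80, adjusted p = 0.41) nor Fos (1.02, adjusted p = 0.242) was called. The MCM ring genes followed this only in part. Livers 4 and 8 were high for Myc, Cdkn1a and the ring. Livers 2 and 5 were also high for Myc and Cdkn1a. Relative to the vehicle mean of log2 CPM, their ring genes lay between -0.53 (Mcm4) and 0.32 (Mcm5) in liver 2. In liver 5 they lay between -0.33 (Mcm4) and 0.99 (Mcm5), and Mcm5 (2.49 CPM) was above every vehicle liver. The G1/S levels, over all tested G1/S genes, were -0.11 and -0.19 in livers 2 and 5. A relation of the ring to Myc or Cdkn1a was not tested.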

How the data were processed

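Mouse liver RNA was measured by RNA sequencing in 16 libraries, 8 per group. Estimated counts for each gene, as deposited, are whole numbers: 0 values were not whole, although the table's name speaks of FPKM, and column totals ran from 28.3 M to 48.2 M. The submitters' processing notes name the mm10 build with Cufflinks 2.2.1, HTSeq 0.6.1, SAMtools 0.1.19, HISAT2 and cutadapt 1.9.1, and the role of each is not given in the sources used here. Nor are the handling of strand and of reads shared between genes, so overlapping genes and close paralogs are uncertain. Rounding changed nothing, and 0 columns of values were left unused.

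Entries were filtered with filterByExpr, scaled by TMM (factors 0.929 to 1.16) and tested with the robust quasi-likelihood F test of edgeR 4.0.16 in R 4.3.3, with group as the single term and Benjamini-Hochberg adjustment over 14308 entries. A call is an adjusted p under 0.05. The SE of a log2 fold change is its absolute value divided by the square root of F. Levels per liver over several genes used log2 CPM with a prior count of 2. Genes below the filter were tested by an exact two-sided permutation test of mean CPM over all 12870 assignments. The fits were tested on simulated data. Results of some single marker genes are not reported here. The 38 genes, the further lists and the tests were chosen with earlier results of these data known. Per-liver values are given for called genes and for Ccnd1, E2f1, Pcna, Mcm2, Mki67, Top2a, Ccnb1 and Cdk1, and for others where livers stood apart; from each further list up to 4 called genes are named by smallest p. Exonic overlaps came from GENCODE M21 (mm10), and promoters from RefSeq (GRCm38.p6, 31 of 38 genes matched). Alternatives were other scalings, other filters, DESeq2 1.42.0, limma 3.58.1 with array weights, a replicate block, and leaving out each liver. Without molecular identifiers, counting error understates the error of a value, so the spread between livers was used.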

Additional observations from a re-analysis of the deposited data

Results flagged for a closer look

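Among the emodin livers, Ccne2 (cyclin E2) in liver 8 stood at 2.85 log2 CPM, while the 7 others lay between 1.22 and 1.83. The gap to the nearest liver was 0.62 of the whole range of the group, above Dixon's 95% critical value for a group of 8. It was the 1 such case among 76 groups examined, and chance alone gives about 1 in 20 groups.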

How the results depend on the processing

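Gins2 kept a positive log2 fold change in all 24 alternatives (1.46 to 1.77). It was not called with array weights, with the replicate block or without emodin liver 2. The number of entries called also changed with the processing. Over the alternatives other than leaving out a liver, 628 to 1413 entries were called higher and 570 to 1119 lower. The counts of genes below are not set against the share of all entries in the same fit. With DESeq2, 4 of the 36 genes were called higher (Ccne1, Mcm5, Gins2 and Cdk1; 3 of them G1/S and 1 G2/M). With limma's array weights, which gave the lowest weights to emodin livers 8 (0.276), 4 (0.376) and 5 (0.455), 2 were called higher (Ccne1 and the G2/M gene Cdk1, so 1 there) and 1 G1/S gene lower (Chek1), and the G1/S median was 0.10. Leaving out 1 liver at a time gave 0 (without emodin liver 2) to 3 (without emodin liver 5) genes called higher, 0 to 3 in G1/S and 0 to 1 in G2/M (Cdk1, without vehicle liver 4), with 2 in all without emodin liver 3, emodin liver 7 or vehicle liver 4. It also gave a G1/S median of 0.07 (without emodin liver 8) to 0.37, and 709 (without emodin liver 4) to 1333 entries called higher and 521 (without emodin liver 2) to 903 called lower. The cause was not tested.

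The replicate numbers did not pair the livers: the correlation of same-numbered livers' deviations ran from -0.149 to 0.245. With the replicate block 628 entries and 0 of the 36 genes were called higher (0 in G1/S), with a G1/S median of 0.11 and an adjusted p of 0.0534 for Gins2. Nor were Gins1 (0.0713), Uhrf1 (0.0802), Rpa3 (0.101), Myc (0.065), Cdkn1a (0.0653), Btg2 (0.0716), Jun (0.211) and Fos (0.107) called with it (adjusted p from edgeR in brackets).

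The sign turned in 13 genes and held in 23. With upper quartile scaling Rrm1 and Kif11 were at -0.01, and with total counts Cdc20 was at 0.01. With array weights it turned for Ccnd1 (-0.49), Mcm3 (-0.25), Mcm4 (-0.26), Mcm7 (-0.02), Rrm1 (-0.03), Cdc20 (0.46), Top2a (-0.03) and Aurkb (-0.21). With the block it turned for Ccnd1 (-0.21), E2f1 (-0.00), Mcm4 (-0.04), Rrm1 (-0.03), Cdc20 (0.06), Aurkb (-0.08) and Cenpe (-0.07). Over single livers left out, the ranges were -0.30 to 0.18 for Ccnd1, -0.04 to 0.13 for E2f1, -0.02 to 0.45 for Mcm3, -0.17 to 0.24 for Mcm4, -0.09 to 0.10 for Rrm1 and -0.05 to 0.12 for Rfc4. They were -0.18 to 0.13 for Cdc20, -0.01 to 0.38 for Top2a, -0.04 to 0.27 for Mki67, -0.13 to 0.29 for Aurkb, -0.03 to 0.09 for Kif11 and -0.11 to 0.28 for Cenpe. None of these was called in either direction. A tested G2/M gene had a median of 12 to 84 estimated counts per liver, and whether this depth bears on the number of calls was not tested.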
